A study of Mus musculus with 10 samples.

Results

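Of the 54532 genes in the deposited table of mouse heart messenger RNA, 44 are protein-coding collagen genes, chosen by symbol (Col, a number, the letter a and a second number) and by the biotype the table gives, with no use of measured values. They comprise 11 fibrillar collagens, 8 basement membrane collagens and 25 others, namely 6 beaded filament chains, 9 fibril-associated collagens (FACITs), 3 network-forming chains, 4 transmembrane collagens and 3 anchoring or unclassed members. The hearts came from 10 Rit1 M90I/+ mice, 5 given vehicle and 5 given trametinib, an inhibitor of the kinases MEK1 and MEK2, at 1 mg/kg once daily. Dosing began at 4 weeks of age and lasted 20 weeks, and hearts were collected 2 hours after the final dose. All 10 animals carried 1 copy of the M90I variant of Rit1, a RAS-family GTPase in which such variants cause Noonan syndrome. Conditional males were crossed to CMV-Cre deleter females, and the paper describes the variant of the treated mice as germline. Recombination in single cell types of these hearts was not measured here. No heart without the allele was part of this comparison. The vehicle contained carboxymethylcellulose and Tween 80, and the study included littermates of both sexes.

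Collagens are secreted as trimers of chains wound into a helix, and each class builds a different part of the matrix around cardiac cells. Fibrillar collagens of types I, III and V form the tensile fibres between muscle bundles and are made mainly by fibroblasts. Type IV collagen, with types XV and XVIII, lies in the basement membranes that surround each cardiomyocyte and underlie endothelium. Type VI collagen forms beaded filaments that link these layers, and FACITs such as type XIV sit on the surface of fibrils. Collagen accumulation stiffens the ventricle and is one of the features watched for in hypertrophic cardiomyopathy.

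Several type IV genes lie head to head, so that a short stretch of DNA holds the start sites of 2 collagen genes. In the coordinates of the table, which equal GENCODE M21 on GRCm38 for all 44 members, Col4a1 (chromosome 8, 11198423 to 11312826, minus strand) and Col4a2 (chromosome 8, 11312805 to 11449287, plus strand) share 22 bases at their 5′ ends. Col4a6 (chromosome X, 141165403 to 141474076, minus strand) and Col4a5 (chromosome X, 141475385 to 141689234, plus strand) lie 1308 bases apart, and Col4a4 (chromosome 1, 82448423 to 82586849, minus strand) and Col4a3 (chromosome 1, 82586921 to 82722059, plus strand) lie 71 bases apart. Start-site windows are shown for the first of these pairs because its transcripts were the highest collagens by the deposited values. Those transcripts also moved together from heart to heart. The windows of Col4a5 and Col4a6 are shown because these are the X-linked members. Each run spans 250 bases before to 50 bases after the RefSeq transcription start on GRCm38.p6, 5′ to 3′ on the strand of its gene. Capitals mark matches on either strand to 3 short promoter motifs, which do not overlap one another in these runs. The CCAAT box was searched by the letters of its name. The GC box was searched as GGGCGG. The motif TATAA was searched as written. The Col4a1 window lies at chr8:11312777-11313076 on the minus strand, the Col4a2 window at chr8:11312555-11312854 on the plus strand, the Col4a6 window at chrX:141474027-141474326 on the minus strand and the Col4a5 window at chrX:141475169-141475468 on the plus strand.
Col4a1: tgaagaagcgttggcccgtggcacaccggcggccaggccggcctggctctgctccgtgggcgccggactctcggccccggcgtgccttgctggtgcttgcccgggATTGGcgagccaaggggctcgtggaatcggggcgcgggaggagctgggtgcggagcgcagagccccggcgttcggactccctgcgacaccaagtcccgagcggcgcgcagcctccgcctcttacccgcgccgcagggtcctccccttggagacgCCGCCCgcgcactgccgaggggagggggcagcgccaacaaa
Col4a2: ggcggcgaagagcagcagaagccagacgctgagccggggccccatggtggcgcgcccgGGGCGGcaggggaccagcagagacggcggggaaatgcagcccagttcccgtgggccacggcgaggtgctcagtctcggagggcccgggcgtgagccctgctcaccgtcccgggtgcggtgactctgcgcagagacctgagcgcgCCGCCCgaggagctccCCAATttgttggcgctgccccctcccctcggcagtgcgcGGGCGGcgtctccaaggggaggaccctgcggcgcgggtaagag
Col4a6: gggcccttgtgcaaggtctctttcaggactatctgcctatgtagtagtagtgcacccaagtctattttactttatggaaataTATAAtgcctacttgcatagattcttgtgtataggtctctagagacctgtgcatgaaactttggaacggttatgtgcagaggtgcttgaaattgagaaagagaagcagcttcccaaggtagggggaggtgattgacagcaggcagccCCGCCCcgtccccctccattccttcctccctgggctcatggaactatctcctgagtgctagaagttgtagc
Col4a5: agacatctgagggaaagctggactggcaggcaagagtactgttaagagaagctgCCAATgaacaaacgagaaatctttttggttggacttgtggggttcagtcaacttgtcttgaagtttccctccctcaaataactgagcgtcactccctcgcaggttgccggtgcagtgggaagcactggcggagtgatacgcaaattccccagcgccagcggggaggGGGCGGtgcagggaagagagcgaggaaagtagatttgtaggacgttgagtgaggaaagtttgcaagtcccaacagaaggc
The Col4a1 and Col4a2 windows share 78 bases, read on opposite strands, and were 74.0% and 73.7% G and C, against 48.3% for Col4a6 and 52.7% for Col4a5. RefSeq windows were matched for 35 of the 44 members, 38 windows in all. GGGCGG was present in 23 of these 38 windows (60.5%), against 35.7% of all 32851 windows of the same length. CCAAT was present in 13 (34.2%, against 37.4%) and TATAA in 7 (18.4%, against 24.9%). A match describes the letters only.

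The values are fragments scaled by gene length and by a size for each library (FPKM), and in each heart 100% of them corresponded to a whole number of fragments. That size was not the fragment total. It was 14218190 against 15371692 fragments in vehicle heart 3, and 17139803 against 16256252 fragments in MEKi-treated heart 1. The depth per heart was 13647167 to 18474002 fragments (median, 15215992), of which collagen transcripts took from 15657 to 23718, or 0.103 to 0.174% of a library. The mitochondrial share was 24.7 to 35.01% of a vehicle library and 24.0 to 28.7% of a MEKi library. Cardiomyocyte transcripts marked every heart as labelled, with 6 markers (Myh6, Tnnt2, Actc1, Ttn, Ryr2 and Myl2) summing to between 12083 and 16586 FPKM. Xist, expressed from the inactive X chromosome, had from 1456 to 2199 fragments in each MEKi-treated heart and at most 2 in any vehicle heart. Ddx3y and Eif2s3y, both Y-linked, had 814 to 901 and 493 to 668 fragments in vehicle hearts and 0 in MEKi-treated hearts. Transcripts of the X and Y chromosomes thus separated the hearts just as treatment did, and for every collagen difference given here the contributions of treatment and of sex cannot be told apart. Atrial transcripts varied widely, their summed level being highest in vehicle hearts 4 and 5 and MEKi-treated heart 2. The labels describe the replicates as biological.

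Per gene length as deposited, basement membrane chains made up the largest share of collagen transcript in these hearts. The deposited length was 2.32 times the longest coding transcript for Col1a2 and 1.76 times for Col3a1. For Col4a1 and Col4a2 it was 1.13 and 1.03 times. With coding lengths, the fibrillar sum would exceed the basement membrane sum in MEKi-treated heart 2. The 8 basement membrane genes held from 44.3 to 53.3% of the summed collagen FPKM of a heart, the 11 fibrillar genes from 24.8 to 32.6% and the 25 others from 19.7 to 23.1%. Summed over all 44 genes, the level was 176, 218, 162, 162 and 189 FPKM in vehicle hearts 1 to 5 and 158, 155, 141, 142 and 155 FPKM in MEKi-treated hearts 1 to 5. The highest MEKi-treated heart was below the lowest vehicle heart, and the means differed by 17.0% (181 ± 23.4 against 150 ± 8.13 FPKM, SD, n = 5 each). For basement membrane genes the sums were 93.1, 105.4, 83.1, 82.2 and 90.4 FPKM in vehicle hearts 1 to 5 and 80.6, 68.7, 71.7, 75.9 and 73.7 FPKM in MEKi-treated hearts 1 to 5, and the groups again did not overlap. Both separations rest on Col4a1, whose own groups did not overlap. Without Col4a1, the groups would overlap in the sum of all collagens and in the basement membrane sum. Fibrillar sums were 48.0, 65.5, 44.02, 46.2 and 54.9998 FPKM in vehicle hearts 1 to 5 and 43.7, 50.5, 37.2, 35.3 and 46.5 FPKM in MEKi-treated hearts 1 to 5, and other collagens summed to 34.7, 46.9, 34.6, 33.4 and 43.6 FPKM in vehicle hearts 1 to 5 and 33.9, 35.9, 31.9, 31.1 and 34.99 FPKM in MEKi-treated hearts 1 to 5. Both of these sums overlapped between the groups. When the values of each heart were rescaled to a common sum (the TPM scale), all 4 sums overlapped, with all collagens at 275 to 444 TPM in vehicle hearts and 254 to 323 TPM in MEKi-treated hearts. That common sum includes mitochondrial genes. As a share of all fragments collagen also overlapped, at 0.113 to 0.174% in vehicle and 0.103 to 0.126% in MEKi-treated hearts. As a share of fragments outside mitochondrial genes it did not, at 0.173 to 0.237% and 0.141 to 0.169%. Without Col4a1 that share would overlap as well. These sums and shares over members were not tested. In bulk tissue, fewer collagen-producing cells and less collagen messenger RNA per cell cannot be told apart.

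**Figure D1:**
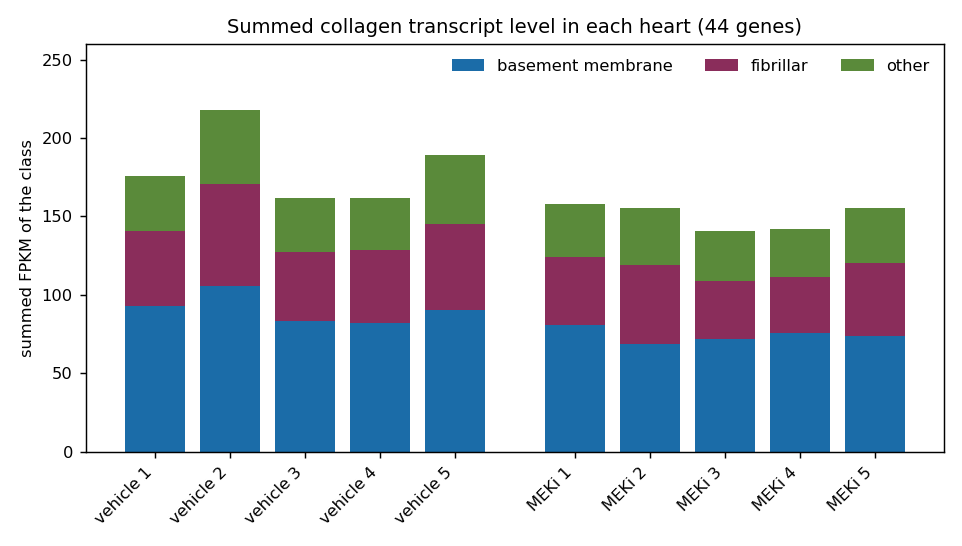
Stacked bars give the summed FPKM of the basement membrane, fibrillar and other collagen genes in each of the 10 hearts, with 5 vehicle hearts on the left and 5 MEKi-treated hearts on the right. The total was between 162 and 218 FPKM in vehicle hearts and between 141 and 158 FPKM in MEKi-treated hearts, with vehicle heart 2 the highest, whereas the same totals overlapped on the TPM scale. Without Col4a1 the FPKM totals would overlap too.

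Among single genes, 6 members averaged at least 10 FPKM, 11 lay between 1 and 10 FPKM, and the rest were lower. The order by mean over the 10 hearts began with Col4a1 (35.03 FPKM) and Col4a2 (27.3 FPKM), followed by Col3a1 (17.5 FPKM), Col6a1 (14.05 FPKM), Col15a1 (12.4 FPKM), Col1a1 (11.97 FPKM), Col6a2 (9.35 FPKM) and Col1a2 (8.82 FPKM). The 8 genes at the top of this order held from 78.8 to 84.9% of the summed collagen level of a heart. Neighbours in this order overlapped in their ranges over hearts, Col4a2 and Col3a1 included, since the lowest Col4a2 value was 22.8 FPKM and the highest Col3a1 value 23.5 FPKM. Those values came from different hearts. Within every heart, per length as deposited, Col4a1 was above Col4a2, and Col4a2 was above Col3a1. The order also depends on the length by which counts were divided, which for 42 of 44 members was the union of all annotated exons. For Col1a2 this length, 12426 bases, was 2.32 times its longest coding transcript of 5348 bases, and with the latter its level would rank 4th instead of 8th. The corresponding factors were 1.76 for Col3a1 and 1.79 for Col6a2. With coding lengths the mean of Col3a1 (30.9 FPKM) would rank 2nd, above Col4a2 (28.0 FPKM) at 3rd.

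To ask whether MEK inhibition was accompanied by a shift in collagen transcripts, limma was applied to log2(FPKM + 0.1) of every gene averaging 0.5 FPKM or more over the hearts, which left 12602 genes and 21 of the collagens. No collagen reached an adjusted p under 0.05 (limma, Benjamini-Hochberg adjustment over all genes tested, smallest value 0.375 for Col4a1), where 0.0794% of all genes did. Of the 21, 18 were lower and 3 higher on average in MEKi-treated hearts, whereas 47.9% of all genes tested were lower. On the TPM scale 17 were lower, Col23a1 taking the other direction. The median log2 fold change was −0.27, against 0.01 over all genes tested, and −0.19 against 0.09 on the TPM scale. Before adjustment, 7 collagens had p under 0.05 in the lower direction (Col4a1, Col4a2, Col4a4, Col1a1, Col6a1, Col6a3 and Col8a1), as had 3.94% of all genes. In the higher direction there were 2 (Col14a1 and Col4a5), against 3.67% of all genes. These 9 genes are 42.9% of the collagens tested, against 7.62% of all genes in either direction. The lower count depended on scaling and on single hearts. On the TPM scale 0 collagens had an unadjusted p under 0.05 in the lower direction and 2 in the higher direction, where over all genes 234 were lower and 776 higher. Without vehicle heart 2, or without vehicle heart 5, there were 3 in the lower direction and 1 in the higher direction, and without MEKi-treated heart 3, or without heart 4, the counts were 4 and 1. Without the 3 hearts highest in atrial transcripts, a choice made after seeing the data, they were 8 and 1. The lower count was above 7 with array weights (11), with voom on recovered fragments (10) and without vehicle heart 4 (10). Fold changes are on the log2(FPKM + 0.1) scale, which understates the change of low genes.

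**Figure D2:**
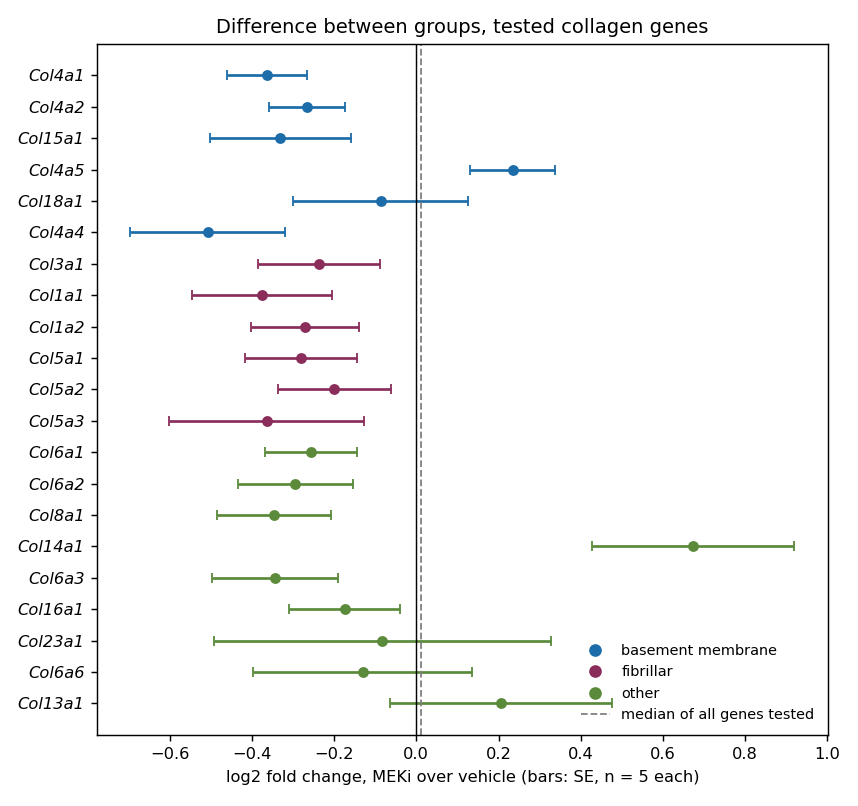
Points give the log2 fold change on the log2(FPKM + 0.1) scale, MEKi-treated over vehicle, of the 21 collagen genes tested, with bars for the SE (5 hearts in each group) and colours for the class. The dashed line is the median of all genes tested (0.01), and 18 points lie to the left of 0, of which Col23a1 lies to the right of 0 on the TPM scale.

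The basement membrane genes had a median log2 fold change of −0.30, with 5 of 6 tested members lower and 1 higher, on the TPM scale too. Col4a1 and Col4a2 encode the chains of the type IV collagen found in nearly all basement membranes. Col4a1 was at 39.6, 46.9, 36.5, 35.8 and 38.5 FPKM in vehicle hearts 1 to 5 and 33.3, 26.9, 29.8, 32.3 and 30.7 FPKM in MEKi-treated hearts 1 to 5. Every MEKi-treated heart was below the lowest vehicle heart. The means were 39.5 ± 4.42 and 30.6 ± 2.48 FPKM (log2 fold change −0.36, SE 0.10, adjusted p = 0.375 in limma, exact p = 0.00794), and this exact p is the smallest that 252 assignments of 10 hearts allow. Here and in the following, exact p refers to a two-sided permutation test of the single gene, not adjusted, and adjusted p to limma. Col4a1 was the 1 tested collagen whose groups did not overlap, in the lower direction, as for 0.849% of all genes tested, and none was without overlap in the higher direction, as for 0.794%. Col4a2 was at 31.1, 33.9, 27.4, 28.7 and 28.0 FPKM in vehicle hearts 1 to 5 and 28.3, 24.2, 23.0, 25.6 and 22.8 FPKM in MEKi-treated hearts 1 to 5. Its groups overlapped through MEKi-treated heart 1, which was above 2 vehicle hearts, and their means differed less than those of Col4a1 (log2 fold change −0.27, SE 0.09, adjusted p = 0.519 in limma, exact p = 0.0238).

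Col4a4, which encodes a chain of the type IV collagen known best from the kidney glomerulus, was at 1.07, 0.765, 0.703, 0.981 and 1.17 FPKM in vehicle hearts 1 to 5 and 0.715, 0.703, 0.526, 0.638 and 0.534 FPKM in MEKi-treated hearts 1 to 5. This low transcript (82 to 191 fragments per heart) had the lowest log2 fold change of the tested collagens, and its ranges overlapped narrowly (log2 fold change −0.51, SE 0.19, adjusted p = 0.555 in limma, exact p = 0.0238). Its head-to-head neighbour Col4a3, the gene of the partner chain, stayed under the filter, at 0.166 to 0.593 FPKM in vehicle hearts and 0.157 to 0.331 FPKM in MEKi-treated hearts. Col4a5, X-linked and the gene of the third chain of that trimer, was at 3.57, 3.45, 4.15, 4.14 and 3.82 FPKM in vehicle hearts 1 to 5 and 4.22, 5.12, 5.00, 4.34 and 3.96 FPKM in MEKi-treated hearts 1 to 5. It was higher on average in MEKi-treated hearts, the opposite direction to Col4a1, Col4a2 and Col4a4, with overlapping groups (log2 fold change 0.23, SE 0.10, adjusted p = 0.634 in limma, exact p = 0.0317). Col4a6, its head-to-head neighbour on the X chromosome, was at 0.134, 0.130, 0.185, 0.414 and 0.147 FPKM in vehicle hearts 1 to 5 and 0.249, 0.424, 0.137, 0.231 and 0.239 FPKM in MEKi-treated hearts 1 to 5. With 15 to 58 fragments per heart it was not in the fit, and by two-sided exact permutation test its groups did not differ beyond their spread (p = 0.397). For Col4a5 and Col4a6, as X-linked genes, the division of the hearts by Xist stands directly beside these values.

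Col15a1 and Col18a1 encode multiplexin collagens, matrix proteins with side chains of sugar whose ends are released as the fragments restin and endostatin. Col15a1 was at 15.2, 17.6, 12.6, 9.34 and 14.8 FPKM in vehicle hearts 1 to 5 and 11.4, 8.26, 11.2, 10.3 and 13.3 FPKM in MEKi-treated hearts 1 to 5. Vehicle heart 4 was below 4 of the 5 MEKi-treated hearts, so that the groups overlapped widely (log2 fold change −0.33, SE 0.17, adjusted p = 0.681 in limma, exact p = 0.119). Col18a1 was at 1.32 to 3.36 FPKM in vehicle hearts and 1.78 to 2.84 FPKM in MEKi-treated hearts (log2 fold change −0.09, SE 0.21, adjusted p = 0.951 in limma, exact p = 0.730). Its direction turned without vehicle heart 5 and without the 3 hearts highest in atrial transcripts, and an opposite-strand gene, Slc19a1 (0.648 FPKM on average), overlaps it by 8825 bases.

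**Figure D3:**
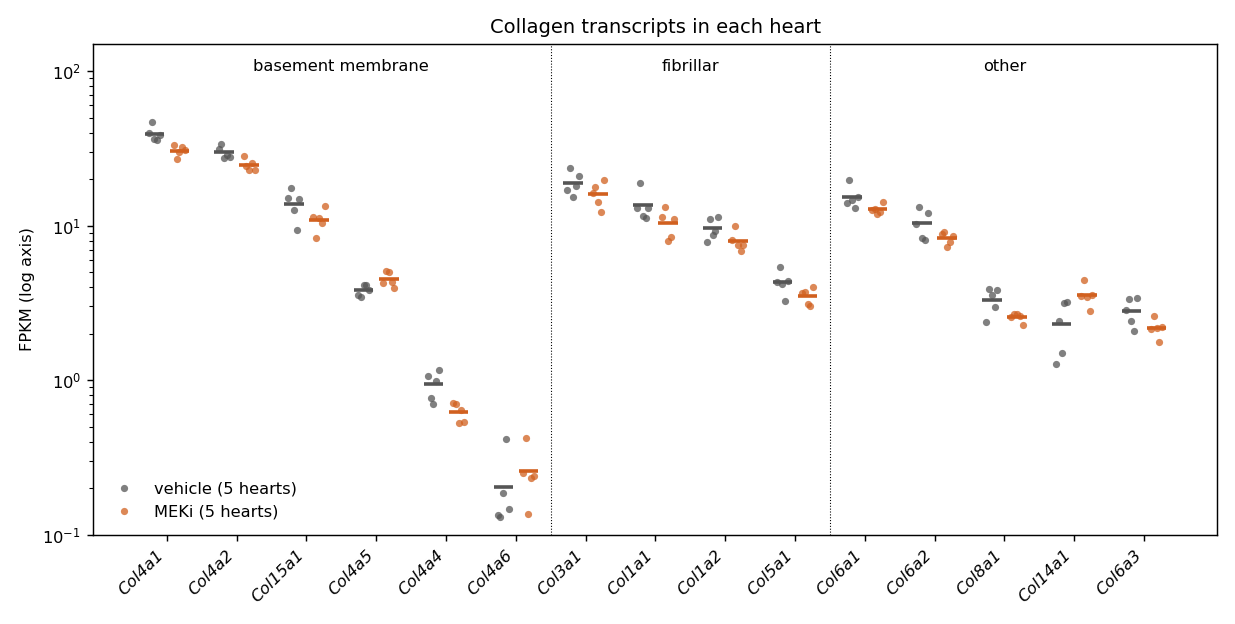
Points give the FPKM, on a log axis, of 15 collagen genes in each vehicle and MEKi-treated heart, and horizontal lines the mean of each group. Col4a1 is the tested gene whose groups do not overlap, with vehicle hearts from 35.8 to 46.9 FPKM and MEKi-treated hearts from 26.9 to 33.3 FPKM, and Col14a1 and Col4a5 lie higher in the MEKi group on average.

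All 6 fibrillar collagens tested were lower on average in MEKi-treated hearts, on the TPM scale too, with log2 fold changes from −0.38 to −0.20 and a median of −0.28. Col1a1 and Col1a2 encode the chains of type I collagen, the main fibre of scar. Col1a1 was at 13.0, 19.0, 11.5, 11.3 and 12.9 FPKM in vehicle hearts 1 to 5 and 11.4, 13.1, 7.998, 8.48 and 11.03 FPKM in MEKi-treated hearts 1 to 5. Vehicle heart 2 stood above all the others, MEKi-treated hearts 3 and 4 were the lowest, and the remaining hearts overlapped. The groups overlapped (log2 fold change −0.38, SE 0.17, adjusted p = 0.652 in limma, exact p = 0.0873). The log2 fold change was −0.25 without vehicle heart 2, the value nearest to 0 when hearts were left out in turn. Col1a2 was at 7.88, 11.1, 8.71, 9.24 and 11.3 FPKM in vehicle hearts 1 to 5 and 8.06, 10.02, 7.52, 6.80 and 7.50 FPKM in MEKi-treated hearts 1 to 5. Vehicle heart 1 was below MEKi-treated hearts 1 and 2 here, and the groups overlapped (log2 fold change −0.27, SE 0.13, adjusted p = 0.664 in limma, exact p = 0.0952).

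Col3a1, whose product co-assembles with type I collagen in distensible tissue, was at 17.0, 23.5, 15.4, 18.0 and 20.9 FPKM in vehicle hearts 1 to 5 and 16.3, 17.9, 14.2, 12.3 and 19.8 FPKM in MEKi-treated hearts 1 to 5. The ranges overlapped over most of their length (log2 fold change −0.24, SE 0.15, adjusted p = 0.744 in limma, exact p = 0.167). The log2 fold change was −0.16 without vehicle heart 2 and −0.15 without MEKi-treated heart 4. Col5a1, which encodes a type V chain that initiates fibrils and limits their width, was at 4.31, 5.39, 4.17, 3.26 and 4.41 FPKM in vehicle hearts 1 to 5 and 3.67, 3.73, 3.09, 3.02 and 4.01 FPKM in MEKi-treated hearts 1 to 5. Vehicle heart 4 lay within the MEKi range, below hearts 1, 2 and 5, and the rest of the vehicle hearts were above that range (log2 fold change −0.28, SE 0.14, adjusted p = 0.664 in limma, exact p = 0.0873). The remaining fibrillar genes tested were Col5a2, at 3.02 ± 0.560 and 2.60 ± 0.322 FPKM, and Col5a3, at 1.71 ± 0.649 and 1.26 ± 0.260 FPKM in vehicle and MEKi-treated hearts (SD, n = 5 each). Their log2 fold changes were −0.20 (SE 0.14) and −0.36 (SE 0.24). Of the fibrillar genes 5 stayed under the filter. Among these, Col2a1 and Col11a1, genes of cartilage collagens, had 1 and 10 fragments in all 10 hearts together, and Col24a1 had 0, where 3 fragments per heart is the limit that a count of 0 allows, for counting error only.

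The 4 beaded filament genes tested were lower on average (median log2 fold change −0.27), and 2 (Col6a1 and Col6a3) had an unadjusted p under 0.05 in that direction, as had 3.94% of all genes. That count was 0 on the TPM scale and without vehicle heart 2, vehicle heart 5, or MEKi-treated heart 1, 3 or 4. Col6a1, Col6a2 and Col6a3 encode the chains of the common type VI collagen, and loss of any of them causes muscle disease. Col6a1 was at 14.1, 19.7, 14.6, 13.1 and 15.3 FPKM in vehicle hearts 1 to 5 and 12.6, 12.7, 11.9, 12.2 and 14.3 FPKM in MEKi-treated hearts 1 to 5. MEKi-treated heart 5 lay within the vehicle range and the other MEKi-treated hearts lay below it (log2 fold change −0.26, SE 0.11, adjusted p = 0.635 in limma, exact p = 0.0238). Without vehicle heart 2 the log2 fold change was −0.16. Col6a2 was at 10.3, 13.1, 8.36, 8.13 and 11.999 FPKM in vehicle hearts 1 to 5 and 8.84, 9.12, 7.32, 7.79 and 8.57 FPKM in MEKi-treated hearts 1 to 5. Vehicle hearts 2 and 5 were the highest and vehicle hearts 3 and 4 lay among the MEKi-treated hearts (log2 fold change −0.29, SE 0.14, adjusted p = 0.663 in limma, exact p = 0.0952). Col6a3 was at 2.84, 3.36, 2.42, 2.08 and 3.38 FPKM in vehicle hearts 1 to 5 and 2.15, 2.60, 2.18, 1.76 and 2.20 FPKM in MEKi-treated hearts 1 to 5. As for Col6a2, vehicle hearts 1, 2 and 5 were above the MEKi range and vehicle hearts 3 and 4 were not (log2 fold change −0.34, SE 0.15, adjusted p = 0.644 in limma, exact p = 0.0714). Col6a6 averaged 0.537 FPKM over the 10 hearts (log2 fold change −0.13, SE 0.27), and its direction turned without MEKi-treated heart 1. Col6a4 and Col6a5 had 1 and 35 fragments in all hearts together.

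Col14a1 had the largest log2 fold change of any tested collagen in either direction, and it was positive. The gene encodes type XIV collagen, a FACIT that binds fibrils through decorin and regulates their growth. Col14a1 was at 1.27, 2.42, 1.504, 3.13 and 3.22 FPKM in vehicle hearts 1 to 5 and 3.48, 4.48, 3.46, 2.78 and 3.57 FPKM in MEKi-treated hearts 1 to 5. Vehicle hearts 1 to 3 were below all MEKi-treated hearts and vehicle hearts 4 and 5 lay between the MEKi-treated ones. The means were 2.31 ± 0.902 and 3.55 ± 0.605 FPKM (log2 fold change 0.67, SE 0.25, adjusted p = 0.554 in limma, exact p = 0.0476), and the log2 fold change was between 0.49 and 0.81 when hearts were left out in turn. Col16a1, the other FACIT tested, was at 1.31 ± 0.167 and 1.14 ± 0.0995 FPKM (SD, n = 5 each), with a log2 fold change of −0.17 (SE 0.13). The remaining 7 FACIT genes were under the filter. One of these, Col22a1, known from muscle-tendon junctions, did not overlap between the groups, at 0.0678 to 0.157 FPKM in vehicle hearts and 0.0138 to 0.0634 FPKM in MEKi-treated hearts. It had only 2 to 21 fragments per heart and was singled out after its values were seen, so no p-value is given. The share of all genes without overlap in the lower direction, 0.849%, does not cover genes under the filter.

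Col8a1, which encodes a network-forming chain made by smooth muscle and endothelium, was at 2.37, 3.89, 3.55, 2.95 and 3.84 FPKM in vehicle hearts 1 to 5 and 2.55, 2.68, 2.66, 2.59 and 2.27 FPKM in MEKi-treated hearts 1 to 5. Vehicle heart 1 lay among the MEKi-treated hearts and the other vehicle hearts were above all of them (log2 fold change −0.35, SE 0.14, adjusted p = 0.589 in limma, exact p = 0.0476). Of the transmembrane collagens, 2 passed the filter. Col13a1 was just inside it at a mean of 0.525 FPKM (log2 fold change 0.21, SE 0.27). Col23a1 (log2 fold change −0.08, SE 0.41) was at 2.37 FPKM in vehicle heart 5 and between 0.352 and 0.699 FPKM in every other heart. The gene just outside the filter was Col27a1, a fibrillar member, at a mean of 0.416 FPKM. Of the 23 collagens under the filter, 11 had fragments in every heart and 12 had none in at least 1 heart, among which Col19a1 and Col24a1 had none in any heart.

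The ratio of transcripts was compared in 5 pairs, per length as deposited, of which 4 encode chains that can share a trimer and Col1a1 with Col3a1 encodes chains that can share a fibril. The Col4a1/Col4a2 ratio was 1.32 ± 0.0608 in vehicle hearts and 1.24 ± 0.0924 in MEKi-treated hearts (SD, n = 5 each). The Col1a1/Col1a2 ratio was 1.41 ± 0.259 in vehicle hearts and 1.30 ± 0.158 in MEKi-treated hearts (SD, n = 5 each). The Col1a1/Col3a1 ratio was 0.713 ± 0.0861 in vehicle hearts and 0.648 ± 0.0825 in MEKi-treated hearts (SD, n = 5 each), the Col5a1/Col5a2 ratio 1.44 ± 0.239 in vehicle hearts and 1.36 ± 0.220 in MEKi-treated hearts (SD, n = 5 each) and the Col6a1/Col6a2 ratio 1.501 ± 0.185 in vehicle hearts and 1.54 ± 0.120 in MEKi-treated hearts (SD, n = 5 each). None of the 5 ratios differed between groups beyond the spread of the hearts (two-sided exact permutation tests over 252 assignments). The p-values were 0.151 for Col4a1/Col4a2, 0.476 for Col1a1/Col1a2, 0.254 for Col1a1/Col3a1, 0.611 for Col5a1/Col5a2 and 0.683 for Col6a1/Col6a2, all exact, and adjusted over the 5 they ran from 0.635 to 0.683. The ratio levels depend on the gene lengths used. With the longest coding transcript in place of the deposited length, Col1a1/Col1a2 would be 0.671 in vehicle and 0.619 in MEKi-treated hearts, below 1 instead of above it, and Col4a1/Col4a2 would be 1.45 and 1.36.

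Chains of one collagen tracked each other from heart to heart, as did Col1a1 and Col3a1 of different types. No background over pairs of other genes was computed. Over the 10 hearts, on log2(FPKM + 0.1), 6 pairs were compared by permutation tests with 100000 resamples and Benjamini-Hochberg adjustment over the pairs, and the points of a pair share their library and its scaling. Hearts of both groups were permuted together, so a group difference shared by the genes of a pair enters these p-values. Pearson's r was 0.911 for Col4a1 and Col4a2 (permutation p = 0.00034, adjusted p = 0.00204) and Spearman's rho 0.855 (permutation p = 0.00303, adjusted p = 0.0182), with r = 0.896 without the 2 hearts farthest from the Col4a1 median. For Col6a1 and Col6a2 r was 0.854 (permutation p = 0.00123, adjusted p = 0.00369), or 0.647 without the 2 farthest hearts, and rho was 0.721 (permutation p = 0.0233, adjusted p = 0.0467). Col1a1 and Col1a2 had r = 0.777 (permutation p = 0.00558, adjusted p = 0.00837) and rho = 0.745 (permutation p = 0.0168, adjusted p = 0.0467), with r = 0.719 without the 2 farthest hearts. Pearson's r was 0.846 for Col1a1 and Col3a1 (permutation p = 0.00314, adjusted p = 0.00628) and Spearman's rho 0.588 (permutation p = 0.0802, adjusted p = 0.120), with r = 0.750 without the 2 hearts farthest from the Col1a1 median. For Col3a1 and Col5a2 r was 0.654 (permutation p = 0.0410, adjusted p = 0.0410), or 0.541 without the 2 farthest hearts, and rho was 0.491 (permutation p = 0.155, adjusted p = 0.155). Across classes, Col1a1 and Col4a1 had r = 0.656 (permutation p = 0.0395, adjusted p = 0.0410) and rho = 0.539 (permutation p = 0.114, adjusted p = 0.137), with r = 0.167 without the 2 farthest hearts. The 2 hearts left out there were vehicle heart 2 and MEKi-treated heart 3. With single hearts left out, this r ran from 0.348 without vehicle heart 2 to 0.913 without MEKi-treated heart 2. It was 0.995 within the vehicle hearts and −0.382 within the MEKi-treated hearts. A group of 5 hearts is too small for a correlation of its own, so r was also computed, without a test, on deviations from the group means. These r were 0.770 for Col4a1 and Col4a2, 0.774 for Col6a1 and Col6a2, 0.667 for Col1a1 and Col1a2, 0.80 for Col1a1 and Col3a1, 0.561 for Col3a1 and Col5a2 and 0.394 for Col1a1 and Col4a1.

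**Figure D4:**
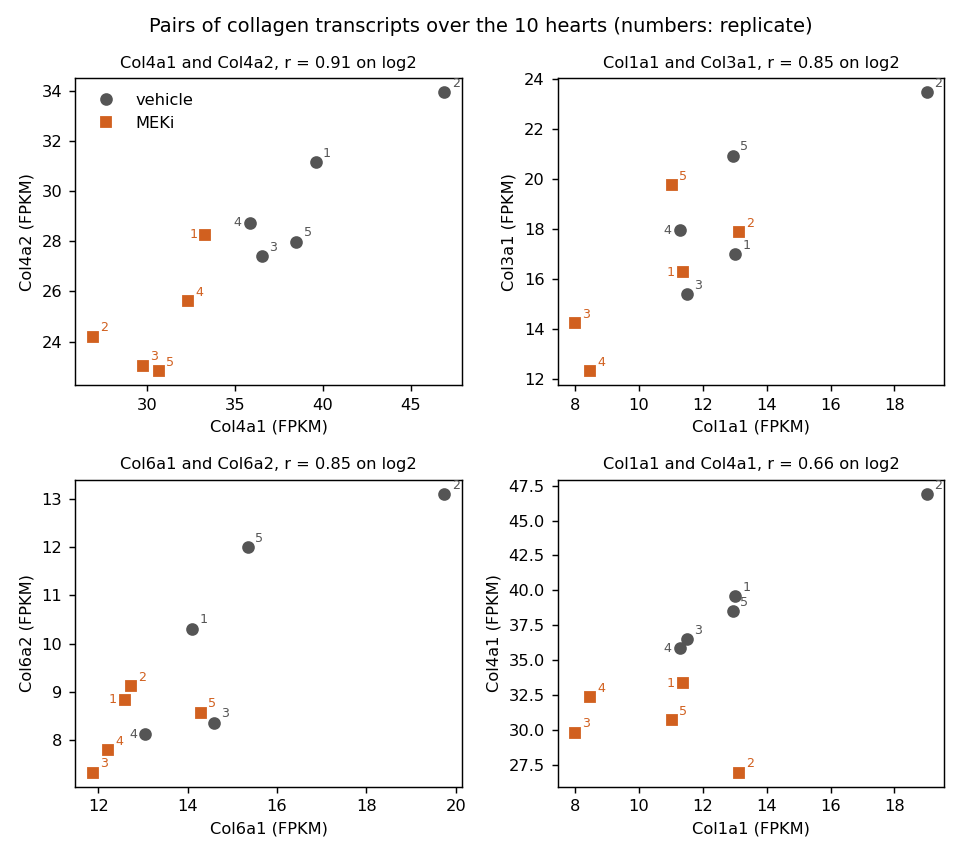
Each panel plots the FPKM of one collagen gene against another in the 10 hearts, with circles for vehicle, squares for MEKi and numbers for the replicate. The chains of types IV and VI lie along a line (r = 0.911 and 0.854 on the log2 scale). The relation between Col1a1 and Col4a1 (r = 0.656) varied with the hearts used. It was 0.167 without vehicle heart 2 and MEKi-treated heart 3, and 0.913 without MEKi-treated heart 2 alone.

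Beyond the collagen genes, 62 genes that modify, secrete, cleave, cross-link, bind or degrade collagen were followed as 7 lists. Of these, 49 passed the filter, 34 being lower and 15 higher on average with MEKi and the median log2 fold change −0.10. On the TPM scale 27 were lower and 22 higher, with a median of −0.03. None reached an adjusted p under 0.05 (limma, smallest value 0.476), and before adjustment 4 had p under 0.05 in the lower direction and 1 in the higher direction. These are 10.2% of the pathway genes tested, near the 7.62% of all genes. Prolyl hydroxylation stabilises the collagen helix, and 10 of 14 genes for hydroxylation and glycosylation were lower (7 of 14 on the TPM scale), with a median of −0.08. P4ha1, the gene of a catalytic prolyl 4-hydroxylase subunit, was at 14.5, 15.0, 23.0, 13.5 and 17.8 FPKM in vehicle hearts 1 to 5 and 14.7, 12.9, 11.9, 11.9 and 12.02 FPKM in MEKi-treated hearts 1 to 5 (log2 fold change −0.38, SE 0.14, adjusted p = 0.554 in limma). The vehicle range was wide, with heart 3 the highest, and it enclosed MEKi-treated heart 1. P4ha2, its paralog, was at 7.78 ± 0.705 and 6.53 ± 0.681 FPKM (log2 fold change −0.25, SE 0.10, adjusted p = 0.593 in limma). P4hb, their shared subunit and the highest gene of the list, was at 85.3 and 95.2 FPKM on average (log2 fold change 0.16, SE 0.08). In folding and secretion 3 of 7 genes were lower and 4 higher, with a median of 0.02, and Serpinh1, the gene of the collagen chaperone HSP47, was at 125 and 119 FPKM on average.

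All 4 genes for propeptide cleavage that passed the filter were lower, with a median of −0.13, although Pcolce2 turned on the TPM scale. Pcolce, whose product enhances removal of the C-terminal propeptide of fibrillar collagens, was at 23.8, 22.1, 17.3, 19.0 and 23.5 FPKM in vehicle hearts 1 to 5 and 17.6, 19.0, 14.6, 15.6 and 15.3 FPKM in MEKi-treated hearts 1 to 5. Vehicle heart 3 lay within the MEKi range and the others above it, heart 4 only narrowly (log2 fold change −0.36, SE 0.11, adjusted p = 0.476 in limma). Adamts14, a procollagen N-proteinase gene under the filter, averaged 0.191 and 0.0511 FPKM in vehicle and MEKi-treated hearts, with groups that did not overlap. It is named for that reason, after its values were seen. The 0.849% of genes without overlap in the lower direction covers only genes that passed the filter. The 5 cross-linking genes that passed the filter were lower (median −0.18), while Loxl4, under the filter, averaged 0.203 and 0.272 FPKM. Of those tested, Loxl1, a lysyl oxidase gene, went from a mean of 16.8 to 12.5 FPKM (log2 fold change −0.38, SE 0.18, adjusted p = 0.652 in limma). The 5 breakdown genes that passed the filter were lower as well (median −0.11), with Mmp2, at 17.8 and 17.5 FPKM, turning on the TPM scale. Proteoglycans of the fibril surface were divided, 3 lower and 4 higher (median 0.01). Lum, whose product lumican binds fibrils, was at 25.8, 32.7, 31.2, 32.4 and 51.8 FPKM in vehicle hearts 1 to 5 and 42.2, 50.2, 52.8, 40.9 and 38.7 FPKM in MEKi-treated hearts 1 to 5 and was higher on average (log2 fold change 0.40, SE 0.17, adjusted p = 0.609 in limma), whereas Dcn, the gene of decorin, was at 112.9 and 110.3 FPKM. Among collagen receptors 4 of 7 were lower and 3 higher (median −0.14), with Itgb1 the highest at 70.9 and 74.6 FPKM and Mrc2, the gene of an endocytic collagen receptor, at 4.60 ± 0.680 and 3.75 ± 0.321 FPKM (log2 fold change −0.28, SE 0.12, adjusted p = 0.606 in limma).

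**Figure D5:**
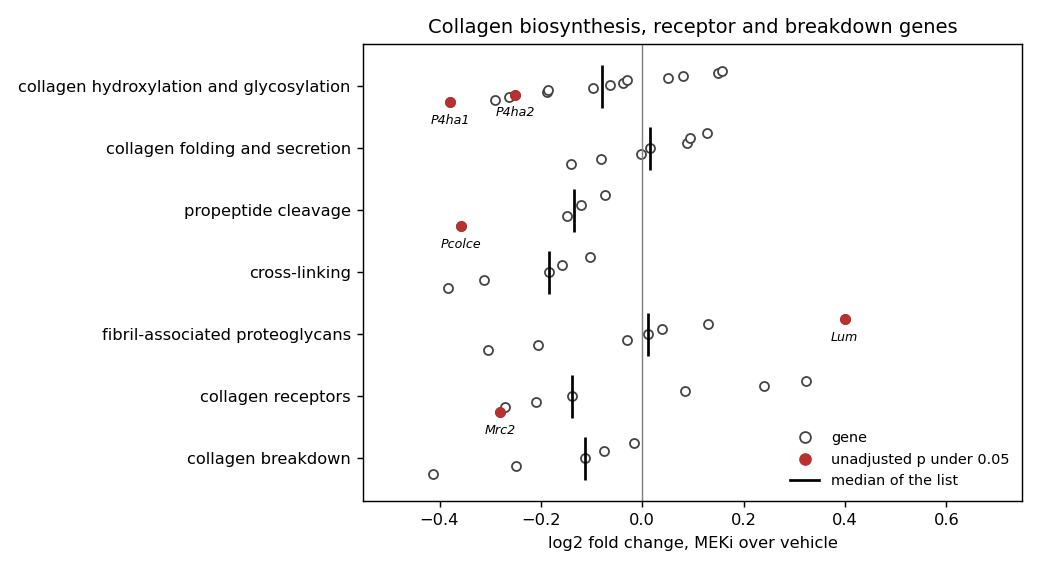
Points give the log2 fold change on the log2(FPKM + 0.1) scale, MEKi-treated over vehicle, of 49 genes of collagen biosynthesis, binding and breakdown, by list, with filled points for an unadjusted p under 0.05 and black bars for the median of each list. Of the 49 points 34 lie below 0 (27 on the TPM scale), and the list medians run from −0.18 for cross-linking to 0.02 for folding and secretion.

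Markers of the cell types that make or could carry collagen transcripts were read in the same hearts, and their part in the collagen values was not tested. Of the fibroblast list (Pdgfra, Tcf21, Ddr2, Dpt, Gsn, Mfap5 and Pi16 passed the filter, Lamc3 did not, and Ddr2 is also in the receptor list), 3 were lower and 4 higher in MEKi-treated hearts (2 and 5 on the TPM scale), with a summed level of 635 to 903 FPKM in vehicle and 600 to 829 FPKM in MEKi-treated hearts. Gsn alone held most of this sum, at 619 FPKM on average in vehicle and 599 FPKM in MEKi-treated hearts. Lamc3, at 0.0677 to 0.148 FPKM in vehicle and 0.00918 to 0.0383 FPKM in MEKi-treated hearts, did not overlap between the groups. It is named for that reason, and the share of all genes without overlap does not cover genes this low. Of the activated fibroblast list 2 were lower and 3 higher (sums 36.3 to 93.1 and 51.4 to 96.4 FPKM). Acta2 held most of these sums, at 42.8 FPKM on average in vehicle and 55.7 FPKM in MEKi-treated hearts. Cthrc1 and Fap were under the filter and higher on average in MEKi-treated hearts. Cthrc1 averaged 0.0797 and 0.231 FPKM, and Fap 0.456 and 0.535 FPKM, in vehicle and MEKi-treated hearts. Meox1, a transcription factor gene of activated fibroblasts, was at 7.95 ± 1.70 and 5.59 ± 0.733 FPKM (log2 fold change −0.48, SE 0.16, adjusted p = 0.488 in limma). All 5 endothelial markers were lower (sums 94.2 to 158 and 93.8 to 116 FPKM), as were all 6 mural markers (139 to 176 and 120 to 164 FPKM), all 5 epicardial markers (7.63 to 22.8 and 0.765 to 16.4 FPKM, median log2 fold change −1.38), 6 of 6 atrial markers tested (192 to 2196 and 143 to 1136 FPKM, median −1.32) and 4 of 4 leukocyte markers tested (13.3 to 24.8 and 12.1 to 18.1 FPKM, Adgre1 turning on the TPM scale). Of the 6 cardiomyocyte markers 2 were lower and 4 higher, with sums of 12083 to 16586 and 12151 to 16386 FPKM, and all 6 were higher on the TPM scale. All 3 Schwann markers tested were higher (1.59 to 3.19 and 1.87 to 4.63 FPKM). Of 3 adipocyte markers tested 1 was lower and 2 higher (98.8 to 272 and 103 to 228 FPKM), and of 2 chondrogenic markers tested 1 was lower and 1 higher (0.972 to 2.01 and 0.803 to 8.43 FPKM, the highest being MEKi-treated heart 2). Single genes also held most of the adipocyte sums (Fabp4), the mural sums (Rgs5) and the leukocyte sums (Csf1r). None of these markers reached an adjusted p under 0.05 (limma, smallest value 0.488 for Meox1), and 3 of 52 tested had an unadjusted p under 0.05, namely Meox1, Csf1r and Sox10. These are 5.77% of the markers tested, against 7.62% of all genes.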

How the data were processed

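The authors deposited 1 table of FPKM for the 10 hearts, made from poly(A)-selected RNA. The submitters' processing notes name fastp, STAR 2.5, HTSeq 0.6.1 and mm10, and the strand setting of the counting is not given in the sources used here, so overlapping genes are uncertain. Whole fragments were recovered from FPKM times gene length within a tolerance of 0.02. Between 13647167 and 18474002 fragments per heart limit the precision of low members. Hearts were grouped by their labels. For genes averaging 0.5 FPKM or more, log2(FPKM + 0.1) entered a limma fit (version 3.58.1, R 4.3.3, functions lmFit and eBayes with trend). Two-sided p-values were adjusted by Benjamini-Hochberg, with 0.05 as the threshold. The fit was tested on simulated counts of fixed dispersion, with changes larger than those of most collagens here. That test gives no measure of power for changes of their size. Python 3.11.15 (numpy 2.4.6, scipy 1.17.1) served for ratios and correlations, and matplotlib 3.10.9 for plots. The rule for members uses gene symbol and biotype alone, but the collagen family, the gene lists and the tests were taken up with earlier results of these data known. Values in every heart are given for the 12 highest members, for tested members with an unadjusted p under 0.05 or groups without overlap, and for X-linked members. Listed genes are named where their unadjusted p was under 0.05, their groups did not overlap or they were among the 2 highest of a list. The alternatives changed the pseudocount, filter, scaling, fit, block and hearts used.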

Additional observations from a re-analysis of the deposited data

Results flagged for a closer look

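In 60 groups of 5 hearts (the tested and X-linked collagens, the ratios and the class sums), 4 values lay far from the other 4 hearts by Dixon's criterion, where chance alone gives about 3. Col1a1 was at 19.0 FPKM in vehicle heart 2 and 11.3 to 13.0 FPKM in the other vehicle hearts. Col5a2 was at 3.16 FPKM in MEKi-treated heart 2 and 2.37 to 2.55 FPKM in the others of its group. Col23a1 was at 2.37 FPKM in vehicle heart 5, against 0.352 to 0.699 FPKM. Col4a6 was at 0.414 FPKM in vehicle heart 4, against 0.130 to 0.185 FPKM.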

How the results depend on the processing

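The number of collagens with an adjusted p under 0.05 was 0 under all 22 alternatives (limma, smallest adjusted p 0.238, with array weights), and the 14 tested genes given heart by heart kept their direction in all 301 of their values. Over all genes, 10 had an adjusted p under 0.05, and the count was 2 with a mean of at least 5 FPKM, 18 with array weights, 5 without the 3 hearts highest in atrial transcripts (chosen after seeing the data), and between 5 (without vehicle heart 2) and 13 when hearts were left out in turn. Without X, Y and mitochondrial genes it was 0 (limma), where 484 genes were lower and 440 higher at an unadjusted p under 0.05. The count of collagens with an unadjusted p under 0.05, 9, was 4 with a mean of at least 5 FPKM, where 8 collagens were tested, 2 on the TPM scale, and between 4 and 12 when hearts were left out in turn. With every gene above 0 in any heart included, the median log2 fold change was −0.21 over 8 basement membrane genes and −0.0396 over 24 other collagens. The Col6a1/Col6a2 log2 difference, 0.0392, turned to −0.0164 without vehicle heart 5 (range −0.0164 to 0.0955 over hearts left out). The correlation of Col4a1 with Col4a2 was 0.770 on deviations from the group means, that of Col6a1 with Col6a2 0.647 without the 2 hearts farthest from the median, and that of Col1a1 with Col4a1 0.167 without those hearts and between 0.348 and 0.913 when hearts were left out in turn. The cause of these changes was not tested.

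The labels give both groups the same replicate numbers, but same-numbered hearts did not deviate together (correlations from −0.15 to −0.02), and 0 of the hearts correlated best with their own number. With the replicate number as a block, 4 genes had an adjusted p under 0.05 and 8 collagens were lower and 1 higher at an unadjusted p under 0.05.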
